A study of Mus musculus with 12 samples.

Results

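The solute carrier genes described here are mouse genes whose symbol begins with Slc and a digit, leaving out Slc4a1. A gene entered when the authors' list of regions with less DNA methylation in Dnmt1 mutant than in wild-type cells named it at a distance of 5000 bases or less. The rule took 553 of the 35439 listed regions, at 202 genes. One of these regions was named for both Slc22a14 and Slc22a13. Since the list was made from a lower level in the same samples, the levels and differences of these regions describe the choice and carry no test. RefSeq holds 383 symbols of this form, and all 202 genes matched one of them. The pattern also takes symbols that are not transporters themselves, such as the scaffold proteins Slc9a3r1 and Slc9a3r2 and the pseudogene Slc2a4rg-ps.

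DNA of lineage-negative (lin-) bone marrow progenitors, which are marrow cells without the surface markers of mature blood lineages, was sequenced after conversion of unmethylated cytosines. One group of mice carried a mutant Dnmt1, written dnmt1-/- in the labels although the study's design text speaks of a missense change that leaves partial function, and the other was wild type (wt). Both groups were BALB/c. There were 12 samples, since for every genotype 3 numbered replicates were made into libraries with both the TruSeq DNA Methylation kit and the NEBNext Enzymatic Methyl-Seq kit. The deposited levels have 1 column per genotype and number, so n = 3 per genotype below. Nothing in the labels says that the numbers are separate animals, and the spread between them may be technical. No age or sex was given. Lineage-negative marrow is a mixture of cell types, and a shift in that mixture and a change of methylation within a cell type cannot be told apart in these levels. The cell type label was not checked against marker expression, since the levels are of DNA. Read counts and coverage were not analysed here, so the depth behind each level is unknown.

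Solute carriers are membrane proteins that move ions, sugars, amino acids, nucleosides, metals, vitamins and other small molecules across the cell surface and the membranes of organelles, by facilitated diffusion or by coupling to a gradient of another solute. Blood cell precursors depend on several of them, among them importers of glucose and glutamine for growth and mitochondrial carriers that feed heme synthesis. DNMT1 copies methylation at CpG sites, a cytosine followed by a guanine, onto the new DNA strand after replication. A methylation level below is the level deposited for a region and column, in percent. Differences are given in percentage points. How CpGs were combined into a region's level was not analysed here, and a level may leave out a CpG counted in its region.

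The promoters shown next are windows around a gene start, main or alternative, that a deposited region covered whole. RefSeq windows of 300 bases, from 250 before to 50 after a gene start (alternative starts included), were available for 158 of the 202 genes. Of these, 18 genes had a window that overlapped a listed region, and 7 genes had a window wholly inside one. Of those windows, 4 are printed, 5′ to 3′ on the gene's strand, with each CpG in capitals. Slc23a3, an orphan relative of the vitamin C transporters, and Slc6a12, a betaine and GABA transporter, had the largest differences among the 7 genes. Slc29a1, the nucleoside carrier ENT1, and Slc46a2, a carrier of thymic stroma and immune cells, belong to a list of transporters with known roles in blood and immune cells. Distances below are from the start of the RefSeq gene span, which only the Slc46a2 region covers among these. The Slc23a3 and Slc6a12 regions begin 760 and 548 bases inside the gene, and the Slc29a1 region lies farther inside. Their windows are thus of alternative starts. The windows lie at chr1:75133841-75134140 on the minus strand, chr6:121343138-121343437 on the plus strand, chr17:45593600-45593899 on the minus strand and chr4:59915007-59915306 on the minus strand, in the build GRCm38.p6 that mm10 names.
Slc23a3: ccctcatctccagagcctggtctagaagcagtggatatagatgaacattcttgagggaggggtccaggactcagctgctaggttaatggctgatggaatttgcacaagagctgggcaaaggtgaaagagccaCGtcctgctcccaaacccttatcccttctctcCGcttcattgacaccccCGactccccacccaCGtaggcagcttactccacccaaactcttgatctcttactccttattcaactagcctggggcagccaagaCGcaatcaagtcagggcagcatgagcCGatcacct
Slc6a12: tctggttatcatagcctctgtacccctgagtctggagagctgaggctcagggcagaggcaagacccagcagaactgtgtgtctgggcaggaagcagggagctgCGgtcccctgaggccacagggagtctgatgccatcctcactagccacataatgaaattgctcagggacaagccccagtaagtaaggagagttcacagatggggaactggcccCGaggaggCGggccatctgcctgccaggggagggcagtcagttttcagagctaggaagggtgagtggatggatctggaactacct
Slc29a1: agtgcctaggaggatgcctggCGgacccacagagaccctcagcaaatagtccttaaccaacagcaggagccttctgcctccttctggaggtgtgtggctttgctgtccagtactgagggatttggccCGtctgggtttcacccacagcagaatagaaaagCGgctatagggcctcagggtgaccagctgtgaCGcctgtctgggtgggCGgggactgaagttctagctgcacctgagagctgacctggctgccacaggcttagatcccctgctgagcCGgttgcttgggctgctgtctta
Slc46a2: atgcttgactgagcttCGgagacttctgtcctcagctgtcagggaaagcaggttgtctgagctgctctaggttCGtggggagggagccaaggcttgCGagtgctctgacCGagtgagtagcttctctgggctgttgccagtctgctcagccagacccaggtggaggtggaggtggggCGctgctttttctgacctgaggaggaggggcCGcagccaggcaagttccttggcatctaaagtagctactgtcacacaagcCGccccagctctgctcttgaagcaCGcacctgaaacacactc

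In the printed windows, Slc6a12 had 3 CpGs, Slc23a3 and Slc29a1 had 6 each, and Slc46a2 had 8. The other windows wholly inside a region had 6 CpGs at Slc7a7, an exporter of cationic amino acids, 7 at Slc17a8, a vesicular glutamate transporter, and 13 at Slc44a4, a choline transporter-like protein. The median was 7 CpGs in windows overlapping a listed solute carrier region and also 7 in all 32851 windows, whereas it was 14 in the 372 windows of solute carrier genes. Motifs were searched on both strands. GGGCGG, the core of the site that SP1 family factors bind, was in the windows of Slc29a1, Slc44a4 and Slc46a2 and in 35.7% of all windows. None of the 7 windows held CACGTG, TGACGTCA or TATAAA, which were in 7.15%, 1.79% and 13.6% of all windows. A match of letters is not a bound site.

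Around the Slc23a3 window, the region chr1:75133384-75134463 had levels of 28.1%, 31.7% and 32.9% in the mutant columns, against 69.7%, 70.2% and 75.3% in wild type. The Slc6a12 region chr6:121343122-121343952 stood at 39.3%, 23.0% and 34.7% in the mutant columns and at 73.4%, 66.6% and 73.1% in wild type. At Slc46a2, the region chr4:59914108-59915472 had 33.7%, 42.7% and 36.0% in the mutant and 55.9%, 69.7% and 62.7% in wild type. In each of these regions every mutant column lay below every wild-type column. Means of the remaining regions were 37.6% in mutant and 61.5% in wild type at Slc29a1, 28.5% in mutant and 52.6% in wild type at Slc7a7, and 59.5% in mutant and 80.6% in wild type at Slc17a8. The Slc44a4 region, at 61.6% in mutant and 85.2% in wild type, also lies over Ehmt2, a histone methyltransferase gene, and cannot be assigned to either gene.

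Averaged over the 553 regions, the level was 45.9%, 48.2% and 50.9% in the mutant columns, against 75.8%, 75.9% and 76.6% in the wild-type columns. The means were 48.3% ± 2.51 in mutant and 76.1% ± 0.427 in wild type (SD, n = 3 each). The mutant columns were thus more spread than the wild-type columns, and mutant replicate 1 was the lowest of the mutant columns in 331 regions, replicate 2 in 166 and replicate 3 in 56. The median difference was -25.4 points, with quartiles of -30.4 and -22.5. Over all 26954 listed regions within the same distance of a gene, the means were 48.4% ± 2.36 in mutant and 76.7% ± 0.283 in wild type (SD, n = 3 each). Their median difference was -26.0 points. Mutant replicate 1 was the lowest mutant column in 15513 of them, replicate 2 in 7622 and replicate 3 in 3819. Median length was 709 bp for solute carrier regions and 723 bp for all listed regions within that distance, and the median number of CpGs was 12 in both.

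All 553 regions were called lower in mutant by limma with Benjamini-Hochberg adjustment over all candidate regions, and in all 553 the columns of both genotypes did not overlap. Over all 107115 candidate regions of the deposited table, limma called 93.5% lower, and in 94.3% every mutant column was below every wild-type column. The rule used this contrast, so nothing is read from the count. The authors' hypermethylated list held 4 candidate regions, or 0.00373%, with none at a solute carrier gene, a count too small to read anything from.

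**Figure D1:**
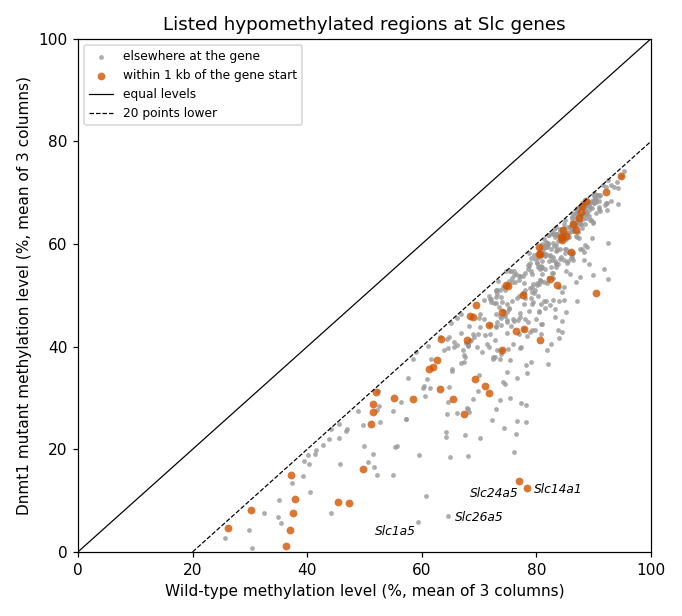
Each point is a listed solute carrier region, plotted by its mean methylation level in the 3 mutant and 3 wild-type columns, in percent. All points lie at least 20 points below the line of equal levels, the smallest difference the list holds, and the 4 labelled regions are among those with the largest differences, with mutant levels of 13.8% or less.

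Potassium channels and calcium and sodium channels, other genes of membrane transport, were taken from the same list by the same distance rule. Potassium channel genes (symbols beginning with Kcn) had 352 regions at 66 genes and a median difference of -28.1 points. Calcium and sodium channel genes (Cacn and Scn) had 367 regions at 35 genes and a median of -28.8 points. Regions with a metilene q-value under 0.05 in the authors' deposited table made up 19.9% of the solute carrier regions, 31.5% of the potassium channel regions, 33.5% of the calcium and sodium channel regions and 24.8% of all listed regions within the distance. These differences between sets were not tested.

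The largest differences were at genes of unlike substrates. Slc14a1 encodes the urea transporter of red cells and kidney, and its region chr18:78142442-78143386, at a deposited distance of -324 bases and so upstream of the gene, had 12.4%, 12.5% and 12.5% in mutant, against 81.1%, 77.6% and 76.5% in wild type. The mutant columns were almost equal there, which was not so at the next gene. Slc24a5 encodes a potassium-dependent sodium and calcium exchanger of pigment granules, and at chr2:125068260-125069089, 133 bases inside the gene, the mutant columns had 18.9%, 6.08% and 16.3% and the wild-type columns 73.9%, 79.8% and 77.2%.

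Other genes had their largest difference deep inside the gene. Slc26a5 encodes prestin, the motor protein of outer hair cells, and its region chr5:21846860-21847176, 18428 bases from the start, had 10.6%, 3.62% and 6.77% in mutant, against 61.4%, 64.0% and 68.6% in wild type. Slc29a4 encodes the plasma membrane monoamine transporter, and its region chr5:142717687-142717808 had 22.3%, 16.3% and 19.7% in mutant, against 78.2%, 79.1% and 70.9% in wild type. At Slc6a17, a vesicular amino acid transporter of neurons, the region chr3:107467696-107468765 had 19%, 22.7% and 27.1% in mutant, against 77.6%, 77.8% and 74.2% in wild type. In these 3 regions the highest mutant column was more than 40 points below the lowest wild-type column. The remaining genes among the 12 with the largest differences were Slc2a9 (urate, -52.7 points), Slc4a4 (sodium bicarbonate, -51.1), Slc6a5 (glycine at nerve terminals, -50.3), Slc35c1 (GDP-fucose into the Golgi, -49.8), Slc12a5 (the neuronal potassium chloride exporter, -49.3), Slc34a1 (renal phosphate, -48.2) and Slc1a5. A difference of at least 40 points was found in 40 of 553 solute carrier regions, or 7.23%, and in 8.70% of all listed regions within the distance.

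Slc1a5 encodes ASCT2, the exchanger through which many dividing cells take up glutamine. Its region chr7:16784305-16784718, 13 CpGs wide and 2971 bases into the gene, had 3.42%, 8% and 6.25% in mutant and 55.8%, 60.0% and 62.2% in wild type. Its neighbour chr7:16783655-16784091 had 5.55%, 5.09% and 6.27% in mutant and 33.1%, 27.0% and 46.0% in wild type. Both regions were therefore nearly unmethylated in every mutant column, while the wild-type columns of the second region were farther apart.

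By position, 493 regions lay within the named gene, 34 upstream and 26 downstream; exons and introns were not analysed here. Within 1 kb of a gene start lay 61 regions at 56 genes. Their mean level was 40.2% ± 2.18 in mutant and 68.7% ± 0.862 in wild type (SD, n = 3 each), with a median difference of -25.6 points. Elsewhere, 492 regions had 49.4% ± 2.56 in mutant and 77.0% ± 0.401 in wild type, with a median of -25.3 points. Regions at gene starts were thus lower in both genotypes. The 2492 listed regions at the start of any gene had 41.8% ± 2.18 in mutant and 71.2% ± 0.360 in wild type (SD, n = 3 each), with a median of -27.2 points.

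A mutant level under 10% was reached in 7 of the 61 regions at gene starts, or 11.5%. The share was 6.50% of all listed regions at the start of any gene. Elsewhere, 9 of the 492 regions reached such a level. Both together are 2.89% of all 553 regions, beside 2.47% of all listed regions within the distance. These shares were not tested against each other. The wild-type level of these 16 regions ran between 25.6% and 64.7%. When the 553 regions were split by CpGs per 100 bp into 4 equal groups, 14 of the 16 were in the densest group. The same split was not made for all listed regions. A listed region differs by at least 20 points. One only slightly above 20% in wild type could therefore be listed only with a mutant level near 0. For regions higher in wild type, the limit also allows higher mutant levels. What set the mutant level of these 16 regions was not tested.

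Among the gene starts, Slc10a4, a vesicular protein related to the bile acid transporters, had a region of 20 CpGs, chr5:73007285-73007789. Its levels were 3.68%, 4.84% and 4.26% in mutant and 38.3%, 39.3% and 33.5% in wild type. Slc15a3, a lysosomal peptide and histidine transporter of immune cells, had a region of 31 CpGs, chr19:10842949-10843565. Its levels were 9.03%, 8.73% and 10.9% in mutant and 44.7%, 49.4% and 47.7% in wild type. These 2 regions, which begin 381 and 405 bases inside the gene, were partly methylated in wild type. Their level was about 11% or less in all mutant columns. The starts themselves lie outside them. Slc5a1, the sodium glucose cotransporter of the gut, had 8.92%, 14% and 6% in mutant and 53.5%, 40.5% and 42.4% in wild type at chr5:33104493-33104723.

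Adjacent regions could differ in level with a similar difference between genotypes. At the start of Slc25a1, the mitochondrial citrate carrier, chr16:17926662-17927256 had 58.1% ± 2.52 in mutant and 80.7% ± 2.03 in wild type (SD, n = 3 each). The next region toward the start, chr16:17927318-17927441, had 4.74% ± 1.59 in mutant and 26.1% ± 5.31 in wild type. The differences were -22.6 and -21.4 points. Other regions within 1 kb of a gene start kept a higher mutant level. At Slc7a4, a relative of the cationic amino acid transporters, it was 50.5% in mutant and 90.4% in wild type. At Slc39a7, a zinc exporter of the endoplasmic reticulum, it was 43.0% in mutant and 76.5% in wild type. The region near the Slc39a11 start, at 16.3% in mutant and 49.7% in wild type, overlaps the neighbouring gene Cog1. In all, 34 solute carrier regions were also listed for another gene, and 14 overlapped the span of another protein-coding gene.

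**Figure D2:**
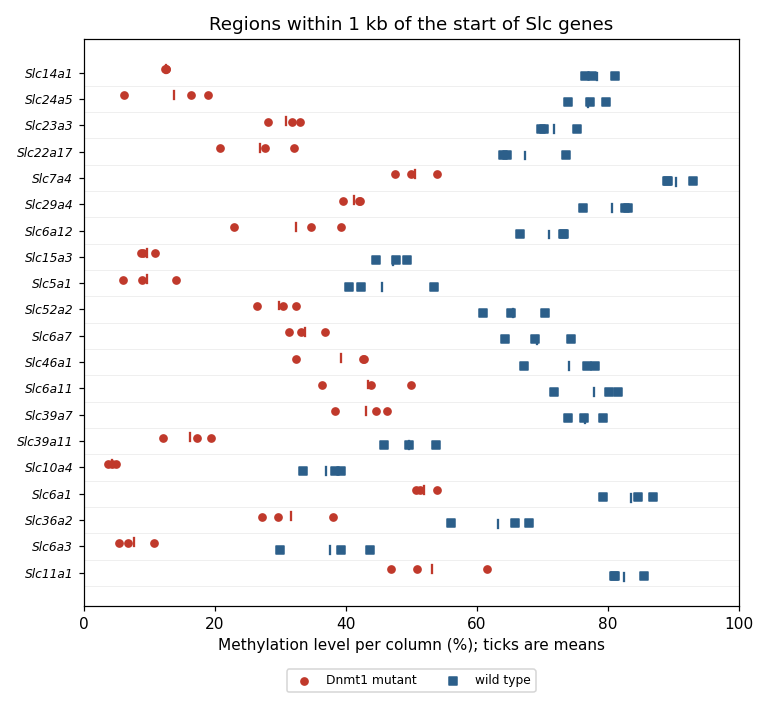
Methylation level in percent of regions within 1 kb of the start of 20 solute carrier genes with large differences, 1 region per gene. Circles are the mutant columns, squares the wild-type columns and ticks the means. In each region shown the 3 mutant points lie below the 3 wild-type points; the Slc10a4 mutant points are all at 4.84% or less.

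The number of regions per gene varied widely. A single region was listed for 78 genes, 2 to 4 regions for 99 genes and 5 or more for 25 genes. Slc4a8, a sodium-driven bicarbonate exchanger, had the most, 21 regions across a gene of 62.2 kb. Their mean was 46.9%, 48.1% and 48.5% in the mutant columns and 74.9%, 76.6% and 77.1% in wild type, and their differences ran between -20.8 and -42.7 points. Slc6a11, the GABA transporter GAT3, had 16 regions, with 40.9%, 41.6% and 43.0% in mutant and 74.5%, 73.1% and 75.6% in wild type. Slc29a4 had 15 regions, with 39.9%, 40.7% and 41.7% in mutant and 77.9%, 77.8% and 78.2% in wild type. In these genes the 3 mutant columns were within 3 points of each other.

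Levels within a gene were uneven. Slc8a2, a sodium calcium exchanger of neurons, had 11 regions, and 4 of them had a mutant level under 10%. At 30998 bases from its start lay chr7:16158590-16158881, a region of 13 CpGs. It had 2.83%, 2.92% and 7.17% in mutant, against 36.7%, 36.8% and 15.9% in wild type. Farther along, chr7:16159001-16159192, a region of 16 CpGs, had 2.80%, 3.33% and 1.93% in mutant, against 32.0%, 27.0% and 17.9% in wild type. Wild-type replicate 3 was the lowest wild-type column in both regions. A region of the same gene at 6321 bases from the start, in contrast, had a mean of 53.6% in mutant and 87.6% in wild type. Slc12a5 had 10 regions, with mutant means between 17.5% and 68.3% and wild-type means between 50.6% and 90.9%.

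**Figure D3:**
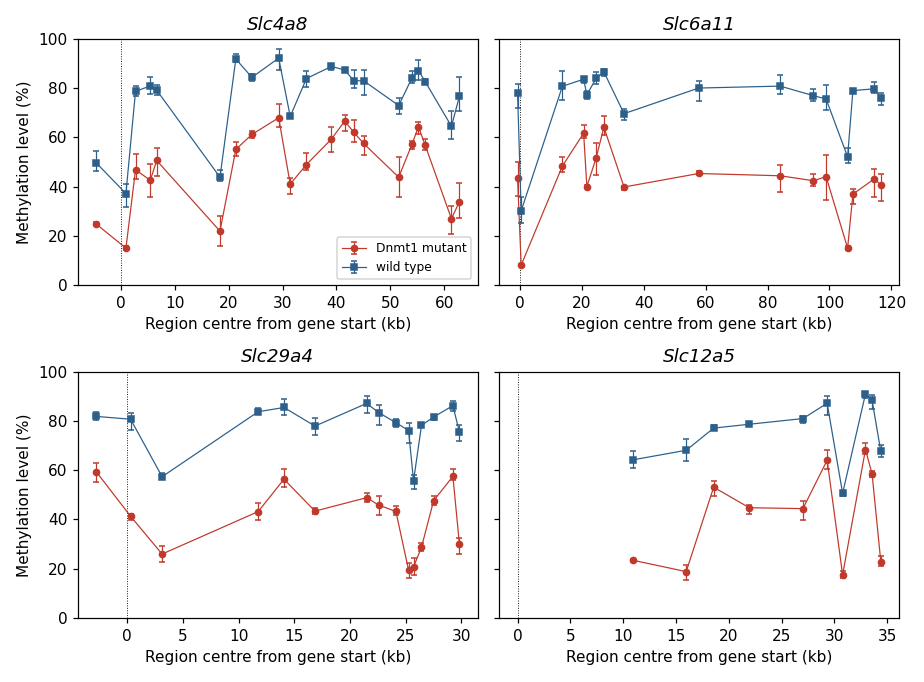
Mean methylation level in percent of each listed region against its distance from the gene start, for Slc4a8, Slc6a11, Slc29a4 and Slc12a5, with circles for mutant, squares for wild type and bars for the lowest and highest column. The mutant points lie below the wild-type points at every listed region of these genes, as the list requires, while the level varies along each gene.

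The regions with the most CpGs belonged to the bicarbonate transporter family. They were Slc4a9 with 61 CpGs (40.3% ± 1.93 in mutant, 68.2% ± 1.57 in wild type), Slc4a3 with 56 (61.3% ± 0.968 in mutant, 87.1% ± 1.02 in wild type) and Slc4a8 with 55 (61.2% ± 1.51 in mutant, 84.4% ± 1.52 in wild type; SD, n = 3 for each). The 3 regions in which the mutant columns differed most had 10 CpGs each. Slc47a1, an exporter of organic cations, had 32.0%, 57.8% and 52.4% in mutant and 83.2%, 86.4% and 80% in wild type. Slc8b1, the mitochondrial sodium calcium exchanger, had 46.9%, 52.8% and 71.1% in mutant and 87.2%, 89.1% and 83.1% in wild type. Slc6a6, the taurine transporter, had 43.3%, 58.2% and 67.0% in mutant and 85.9%, 81.9% and 83.6% in wild type.

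Grouped by substrate, every class of solute carriers held listed regions. Classes were set by family number alone, so single members, such as the urate transporter Slc2a9 among sugars, can have another substrate. Transporters of vitamins, nucleosides, urea, peptides and heme had 59 regions at 19 of 29 RefSeq genes and a median difference of -28.6 points. Slc29a4, a monoamine transporter placed here by its family number, gave more of these regions than any other gene. Neurotransmitter and vesicular transporters had 77 regions at 20 of 36 genes and a median of -27.1. Transporters of inorganic ions and protons had the most regions, 134 at 40 of 61 genes, with a median of -25.5. Sugar and nucleotide sugar transporters had 70 regions at 31 of 62 genes (median -25.3), and amino acid transporters had 68 at 27 of 45 genes (median -23.3). Mitochondrial carriers, which move metabolites across the inner mitochondrial membrane, had 27 regions at 16 of 48 genes, or 33.3%, with a median of -26.4. Trace metal transporters had 32 regions at 13 of 30 genes (median -25.4), carriers of organic ions and bile acids 55 at 23 of 44 (median -25.2), and those of monocarboxylates, fatty acids, choline and acetyl-CoA 31 at 13 of 26 (median -23.8). The medians of the 9 classes thus lay within 6 points of each other, and differences between classes were not tested. The number of regions was not adjusted for gene length.

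**Figure D4:**
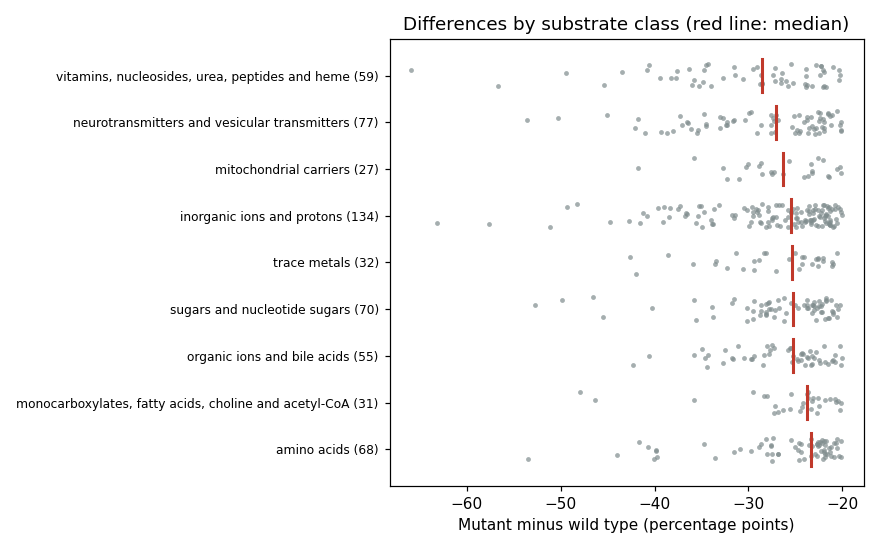
Difference in methylation level, mutant minus wild type in percentage points, for each listed region of the 9 substrate classes, with the class median. The points of every class start at -20, the limit of the list, and the classes overlap over most of their range.

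Transporters with known roles in blood cells were looked at as a list of 42 genes. Of these, 27 had listed regions, 73 in all, with means of 42.6%, 45.9% and 49.5% in the mutant columns and 73.1%, 73.8% and 74.0% in wild type. The median difference was -25.0 points, beside -25.4 over all solute carrier regions. RNA was not analysed here.

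Among transporters of glucose and lactate, Slc2a1 encodes the glucose transporter GLUT1. Its only listed region had 52.7%, 48.9% and 58.9% in mutant and 74.8%, 78.1% and 74.2% in wild type. Slc2a3, the glucose transporter GLUT3, had 2 regions averaging 28.4% ± 2.20 in mutant and 55.0% ± 2.83 in wild type (SD, n = 3 each). Slc16a3, the lactate exporter MCT4, had 4 regions averaging 43.6% ± 5.61 in mutant and 68.6% ± 1.72 in wild type. Among amino acid transporters, the smallest of these differences were at Slc7a5, the leucine importer LAT1, with 2 regions at 59.7% ± 2.32 in mutant and 80.2% ± 2.95 in wild type, and at Slc43a1, with 67.3% ± 1.27 in mutant and 88.6% ± 2.40 in wild type. Slc38a1, a glutamine importer, had 3 regions averaging 49.7% ± 5.01 in mutant and 81.6% ± 0.583 in wild type (SD, n = 3 each). The largest of its differences was upstream, at a deposited distance of -4643 bases, with 29.9%, 28.3% and 30.6% in mutant and 72.7%, 71.4% and 76.8% in wild type.

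Several listed genes serve iron, heme or folate. Slc25a37, mitoferrin, which brings iron into mitochondria of red cell precursors, had 4 regions averaging 63.1% ± 5.05 in mutant and 90.3% ± 1.03 in wild type (SD, n = 3 each). Slc25a38, the mitochondrial glycine carrier needed for heme synthesis, had 62.6% ± 1.77 in mutant and 84.1% ± 0.347 in wild type in 1 region. Slc48a1, which moves heme out of lysosomes, had 47.0%, 48.3% and 49.3% in mutant and 81.3%, 80.6% and 85.6% in wild type. Slc46a1, a folate importer, had 3 regions averaging 49.7% ± 3.82 in mutant and 79.6% ± 3.06 in wild type. Of these genes, Slc25a37 and Slc25a38 had the highest means in both genotypes.

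In phagocytes, Slc11a1 exports metals from the compartment that holds engulfed microbes. Its region chr1:74376819-74377224 had 27.5%, 28.8% and 37.5% in mutant and 67.9%, 69.6% and 71.9% in wild type. Slc37a2, a sugar phosphate antiporter of macrophages, had 28.3%, 47.4% and 47.9% in mutant and 73.1%, 72.2% and 72.9% in wild type, so that mutant replicate 1 stood apart from the others. Slc20a1, a phosphate importer, had 28.1%, 28.9% and 32.5% in mutant and 70.2%, 72.8% and 63.9% in wild type.

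The other 15 genes of the list had no region by the rule. Of these, 10 had candidate regions: Slc11a2, Slc15a4, Slc22a5, Slc39a10, Slc39a8, Slc3a2, Slc5a3, Slc7a2, Slc7a6 and Slc8a1. At Slc39a10, a zinc importer, a region within 5 kb of the RefSeq span had 42.0% in mutant and 85.8% in wild type. At Slc11a2, the iron importer DMT1, such a region had 67.7% in mutant and 91.5% in wild type. The authors' deposited table lists both regions for another gene. The largest differences at the other 8 genes ran between -19.5 points at Slc7a6 and -2.73 points at Slc22a5. The remaining 5, Slc12a2, Slc16a1, Slc28a2, Slc40a1 and Slc7a11, had no candidate region, and their methylation was not analysed here.

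**Figure D5:**
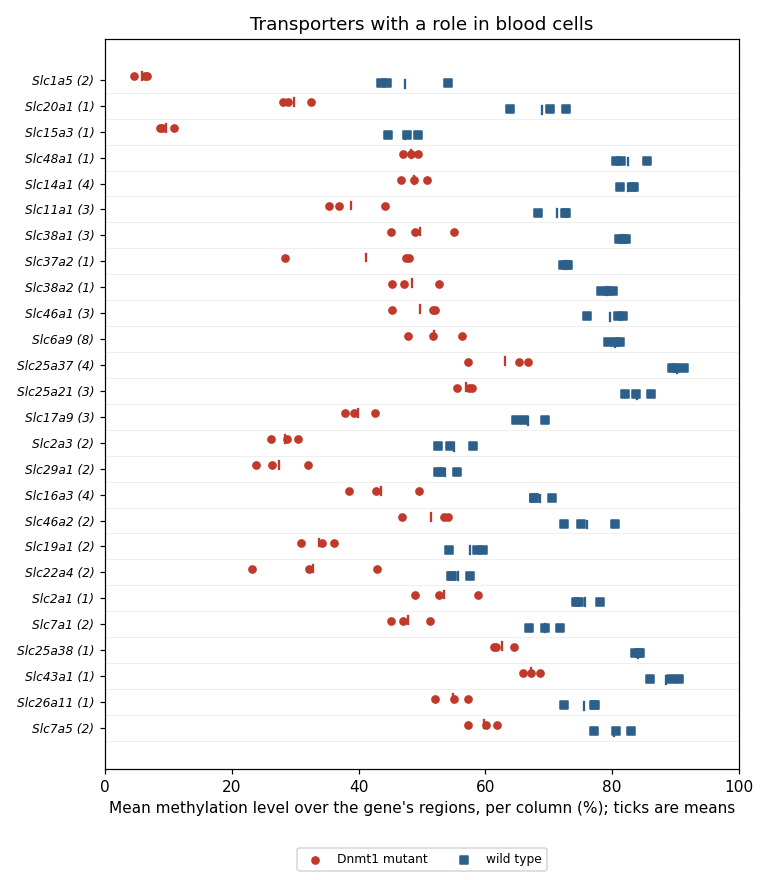
Mean methylation level in percent over the listed regions of solute carriers with a known role in blood cells, with circles for the mutant columns, squares for the wild-type columns, ticks for the means and the number of regions in parentheses. The mutant points lie below the wild-type points for each gene shown, with Slc1a5 lowest in mutant and Slc25a37 highest in wild type.

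The authors' table of candidate regions also covers regions that were not listed. Within the RefSeq spans of solute carrier genes plus 5 kb on either side lay 2136 candidate regions at 315 genes, of which 685 were listed for any gene, or 32.1%, beside 33.1% of all candidate regions. Of these genes, 113 had no region by the rule, and a further 68 solute carrier genes had no candidate region. The 1451 regions that were not listed had 65.5% ± 2.23 in mutant and 78.4% ± 0.258 in wild type (SD, n = 3 each), with a median difference of -13.6 points, beside -13.5 for all regions that were not listed. Of the unlisted regions, limma called 1305 lower, or 89.9%, beside 90.2% of all unlisted regions, and 37 were lower by 20 points or more.

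Counting listed and unlisted regions, limma called 1990 of the 2136 lower in mutant, or 93.2%, and 0 higher. None was higher at an unadjusted p under 0.05 in that fit, and 3 regions, or 0.140%, had every mutant column above every wild-type column, beside 0.0952% of all candidate regions. Over all candidate regions, limma called 0.0485% higher. A higher mean in mutant was found in 19 of the 2136 regions, or 0.890%, beside 0.882% of all candidate regions. The largest such difference was at Slc25a34, a mitochondrial carrier, with 0%, 13.2% and 0% in mutant and 0%, 1.33% and 0.444% in wild type. It rested on mutant replicate 2, without which the mutant level was 0% and below the wild-type mean of 0.593%. The solute carrier regions lay on all 19 autosomes, with 63 each on chromosomes 11 and 6. No candidate region lay at any of the 13 solute carrier symbols on the X chromosome, which held 92 candidate regions in all.

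The rule has a limit of distance and, through the list, a limit of difference. Just inside the distance were Slc25a48 at 4827 bases (40.4% in mutant, 71.5% in wild type), Slc44a2 at 4811 and Slc2a7 at 4803, with differences of -31.1, -21.3 and -27.8 points. Just outside were Slc35c1 at 5253 bases, Slc52a2 at 5298 (23.2% in mutant, 67.0% in wild type) and Slc26a9 at 5332, with -23.2, -43.9 and -35.5 points. The smallest differences inside were -20.04 points at Slc47a2 and -20.1 at both Slc4a3 and Slc6a4. Among unlisted regions that differed by less than 20 points, the nearest to that limit were at Slc25a4 (72.0% in mutant, 92.0% in wild type), Slc5a11 and Slc39a13, the last at -19.9 points. By column means, 37 unlisted regions were also past 20 points. Their differences by the authors' group means are unknown here, and what kept them off the list was not tested.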

How the data were processed

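Per the labels' protocols, 12 libraries of genomic DNA were sequenced paired-end with 100 bp reads. Positions are in mm10, per the submitters' processing notes. Not given in the sources used here were the aligner, the caller and whether a column merges both kits. The authors deposited levels as a fraction per region and column, which were multiplied to percent, and a list of regions with distance to a gene, the number of CpGs and a metilene q-value (a p-value after adjustment). The deposited difference of mean levels is a score. Every printed mean level was computed from the replicate columns. No coverage was used, so precision from depth is unknown. The smallest number of CpGs in a listed region was 10. The authors' group means and the column means differed at most by 5.11 points for mutant and 7.01 points for wild type among solute carrier regions.

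All 107115 candidate regions were fitted with limma 3.58.1 in R 4.3.3 on percent levels, by genotype, with Benjamini-Hochberg adjustment at 0.05, after a test on simulated data. Summaries used Python 3.11.15, pandas 2.3.3 and matplotlib 3.10.9. Gene spans and promoter windows came from RefSeq, GRCm38.p6; gene strand came from the deposited list. A region was at a gene start when it came within 1 kb of it. The members, substrate classes and gene lists were chosen with earlier results of these data known. Genes were named as the 12 with the largest difference, extremes of CpG number, region number, level and spread (3 each), up to 3 per substrate class with gene starts first, and the blood list; promoters, threshold neighbours and Slc25a34 follow their own rules, and Slc39a10, Slc11a2, Slc7a6, Slc22a5 and other single regions of Slc8a2 and Slc12a5 were picked after their values were seen. One gene that these rules would name is not reported here by itself, though it counts in the totals. Alternatives were other scales, variance models, distances, CpG minimums and leaving out each column.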

Additional observations from a re-analysis of the deposited data

How the results depend on the processing

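With each column left out in turn, the mean difference over the solute carrier regions lay between -29.0 and -26.5 points, and limma called between 95623 and 100046 candidate regions lower and between 30 and 63 higher. With no column left out it called 100125 lower and 52 higher; modelling a trend of the variance gave 82 higher. All 553 solute carrier regions were called in each of these fits. The rule used this contrast, so nothing is read from calls among them, here or below. Limiting the set to a metilene q-value under 0.05 left 110 regions with a mean difference of -33.7 points, and requiring 15 CpGs left 176. With distances of 1000 bases, 518 regions remained in the set, and at any distance it had 652. The authors' group means from the deposited table gave -27.6 points, and each gene counted once gave -27.4. Deviations of columns with the same replicate number correlated at 0.0372, 0.00489 and 0.050 over regions. Columns of unlike numbers correlated between -0.0507 and 0.0117, so that 0.0372 and 0.050 lay above all of these. All the correlations were small, and pairing was not tested. A fit with the replicate number as a block called 99903 regions lower and 70 higher, and all 553 solute carrier regions. For the 73 named regions with 1 column left out, giving 438 values, the largest move was 7.70 points, at Slc47a1. All values were below 0, which was fixed in advance. In each of these regions every mutant column lay below every wild-type column. The depth is unknown, and no limit from counting can be given.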
